A study of Danio rerio with 12 samples.

Results

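The genes described here encode 7 transcription factors of zebrafish endoderm: *mixl1* (*bon* on the array), *gata5*, *gata6*, *sox32*, *sox17*, *foxa* and *foxa3*. They were chosen by name, as every array feature that the probe-to-gene table of the platform pairs with 1 of these symbols. This gave 19 of the 45220 features of the array: 5 for *mixl1*, 3 each for *gata6* and *foxa3*, and 2 each for *gata5*, *sox32*, *sox17* and *foxa*. Features of a gene are called probes below and are numbered by their mean signal over all arrays, with probe 1 the brightest.

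The study asked how the T-box transcription factors Ta and Tbx16 act in the gastrula, and knocked both down with morpholinos (MOs), antisense oligonucleotides injected at the one-cell stage. Whole AB-strain embryos had received 0.5 pmol *tbx16* MO plus 0.25 pmol *ta* MO (double morphants) or 0.75 pmol standard control MO. They were collected at shield (6 hpf, the onset of gastrulation) or at 90% epiboly (9 hpf, late gastrulation). Each of the 4 groups had 3 samples, and each sample was the total RNA of a pool of about 200 embryos, labelled with a single dye and hybridised to its own Agilent array. An MO lowers a protein in an injected embryo without changing the gene, and all groups, the controls included, were injected. No source says whether the pools were separate clutches, and p-values then cover only the spread between these samples, which may be technical.

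Endoderm is induced at the blastula margin by Nodal ligands. In the marginal cells Nodal signaling, together with maternal factors such as Eomesa, switches on the homeodomain factor Mixl1 and the zinc-finger factor Gata5, which activate *sox32*. Sox32 in turn is needed for *sox17*, and the endodermal cells then switch on forkhead genes of the Foxa family. Several of these genes also work outside endoderm: *sox32*, *gata5* and *gata6* in the yolk syncytial layer, *gata5* and *gata6* in heart precursors, *sox17* and *sox32* in the dorsal forerunner cells that build the laterality organ.

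Signals are log2 values that the authors had normalized between arrays, whose medians lay between 7.06 and 7.07. Within groups, arrays correlated at 0.966 to 0.990 over all features. *tbxta* (*ta*), the notochord and tailbud T-box gene, had a higher signal in double morphants at both stages (log2 differences of 1.19 and 1.81 with adjusted p = 0.0165 and 0.000248, limma), and *tbx16* did not pass (0.54 and 0.37, adjusted p = 0.443 and 0.995). The *tbxta* call at shield was lost without the first control (adjusted p = 0.0535), without the third double morphant (adjusted p = 0.0854) and in a fit of the shield arrays alone (adjusted p = 0.181), and the methods' t-test after adjustment gave 0.595 and 0.105. The RNA level is therefore no check of the knockdown, and no protein was measured on these arrays. All tests below are limma fits of the 12 arrays with Benjamini-Hochberg adjustment over all 45220 features at a threshold of 0.05.

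Double morphants did not differ past the threshold from control MO embryos on any of the 19 probes, at either stage. Over all features, 0.484% passed at shield and 0.705% at 90% epiboly. At an unadjusted p under 0.05 the counts were 1 of 19 at shield, for *gata5*, where 8.96% of all features reached it, and 5 of 19 at 90% epiboly, for 4 probes of *mixl1* and 1 of *foxa*, where 5.65% did. The median difference over the 19 probes was -0.02 at shield and -0.10 at 90% epiboly, and over all features 0.00 at both stages. The unadjusted 95% confidence intervals reached 0.38 to 0.59 on the log2 scale to each side of a difference. These widths are no detection limit, and power was not computed. Smaller shifts could be missed with 3 arrays a group, and larger ones could also be missed after adjustment over all features. An example is *mixl1* probe 1 at 90% epiboly, whose difference of 0.87 did not pass (limma, adjusted p = 0.323). From shield to 90% epiboly *mixl1*, *sox32* and *foxa* fell on every probe, both with control MO and in double morphants.

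**Figure D1:**
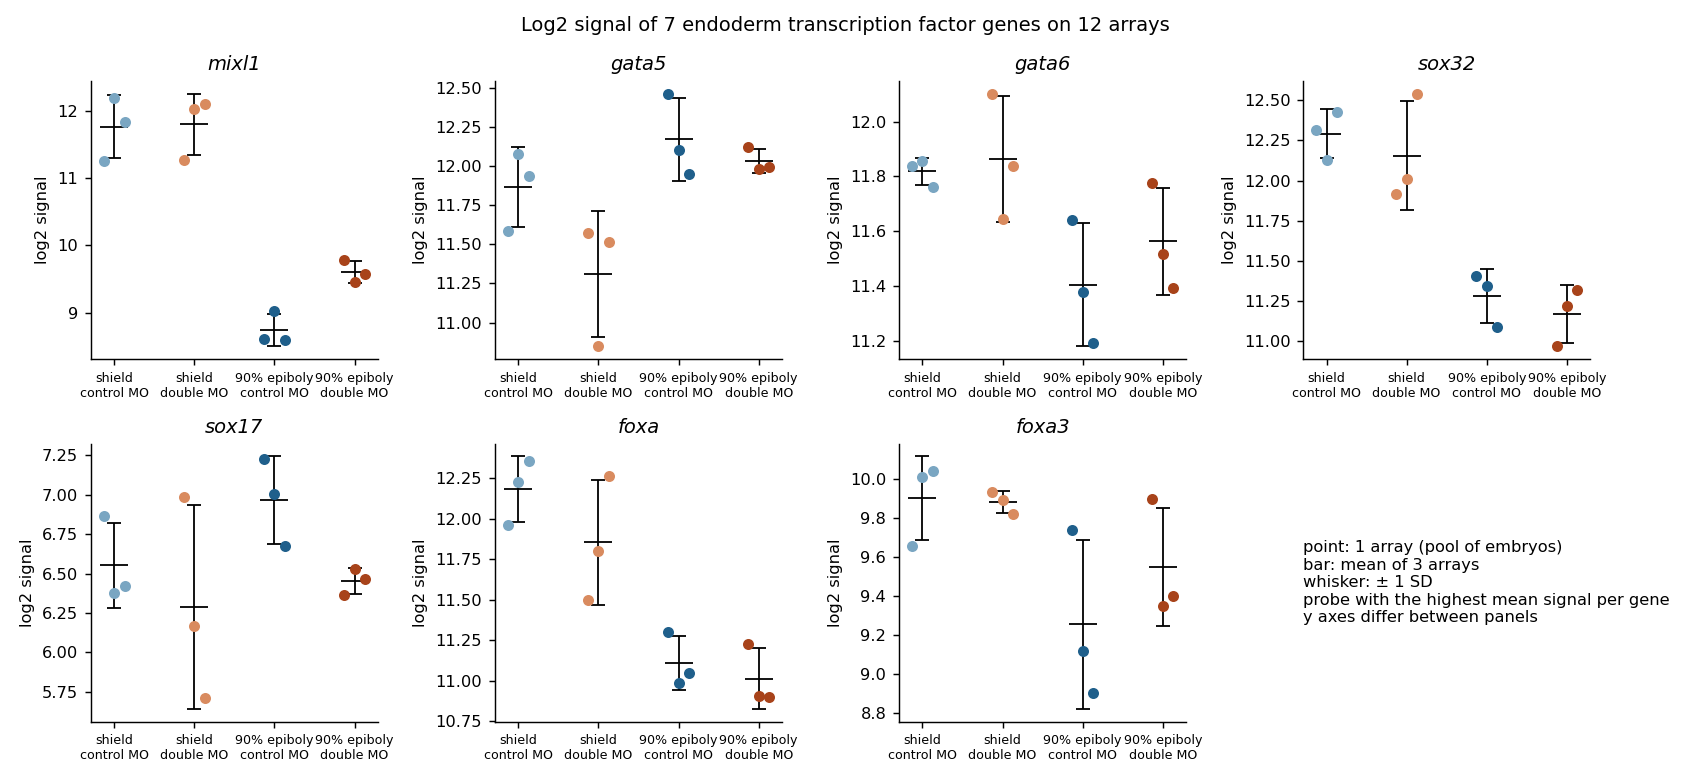
Log2 signal (y axis, scales differ between panels) of the brightest probe of each of the 7 genes in the 4 groups (x axis); points are single arrays, bars and whiskers are mean ± SD of 3. Signals of *mixl1*, *sox32* and *foxa* are lower at 90% epiboly than at shield in both kinds of embryo, and those of *mixl1* at 90% epiboly lie between 8.60 and 9.02 in controls and between 9.46 and 9.78 in double morphants.

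Mixl1 is a paired-like homeodomain factor of the mesendoderm that binds together with Nodal-activated Smad2. At shield the log2 signal of *mixl1* probe 1 was 11.26, 12.19 and 11.84 in the control MO samples and 11.28, 12.03 and 12.10 in the double morphant samples. At 90% epiboly it was 8.61, 9.02 and 8.60 in controls and 9.78, 9.46 and 9.58 in double morphants. The shield groups covered the same range, while at 90% epiboly each double morphant sample was above the highest control, and every sample was below all those of shield. In controls the signal fell by 3.02 (standard error 0.26, adjusted p = 2.59e-05), to 12.3% of its shield level (95% CI 8.33 to 18.2%). In double morphants it fell by 2.19 (standard error 0.26, adjusted p = 0.000216), to 21.9% (95% CI 14.8 to 32.3%).

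The other 4 probes of *mixl1* followed the same course, with log2 differences of -1.72 to -2.57 in controls and of -1.36 to -1.98 in double morphants, all past the test. Over the 12 arrays the 5 probes correlated with each other at 0.920 to 0.992, over arrays that differ by stage. The fall of each probe passed in both kinds of embryo when any single array was left out.

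Between MO groups, *mixl1* differed by 0.03 at shield (standard error 0.26, adjusted p = 0.979) and by 0.87 at 90% epiboly (standard error 0.26, adjusted p = 0.323). The second value corresponds to a signal at 182% of the control level (95% CI 123 to 269%). Its unadjusted interval excludes 0, but the difference did not pass over all features, nor under any alternative (adjusted p = 0.0603 to 0.800). Probes 2, 3, 4 and 5 gave 0.61, 0.62, 0.73 and 0.38 at 90% epiboly (adjusted p = 0.602, 0.744, 0.638 and 1.00), and the groups overlapped only for probe 5. So 4 of the 19 probes were higher without overlap at this stage, all of *mixl1*, against 7.09% of all features. They share their samples and cannot count as separate evidence. The difference between the stages, tested as an interaction, was 0.83 for probe 1 (95% CI 0.03 to 1.63, adjusted p = 0.9998) and passed for none of the 19 probes, against 0.287% of all features. At an unadjusted p under 0.05 it was reached by probe 1 of *mixl1* alone among the 19, and by 3.77% of all features.

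**Figure D2:**
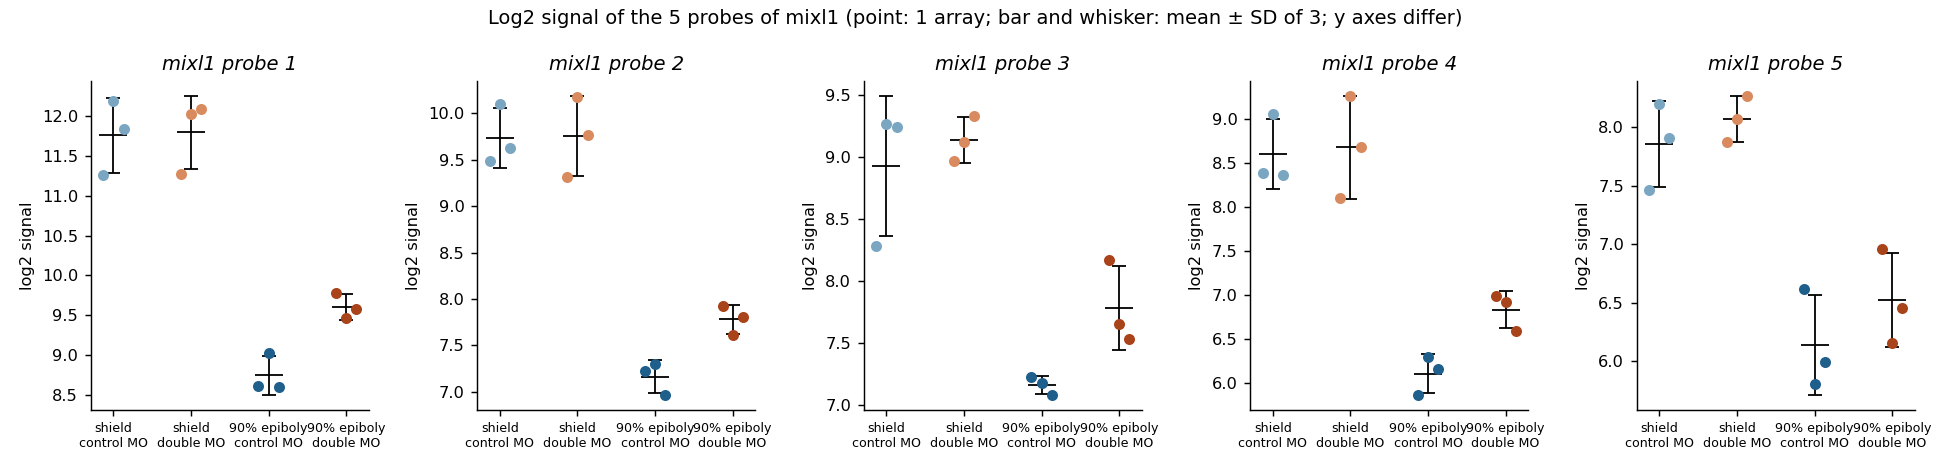
Log2 signal (y axis, scales differ) of the 5 probes of *mixl1* on the 12 arrays by group (x axis); points are arrays, bars and whiskers are mean ± SD of 3. Each probe falls between the stages, and at 90% epiboly the double morphant samples of probes 1 to 4 lie above all control samples.

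Gata5 is a zinc-finger factor that acts beside Mixl1 upstream of *sox32* and is also needed for heart precursors. The log2 signal of *gata5* probe 1 at shield was 11.59, 12.08 and 11.94 in controls and 11.57, 10.85 and 11.51 in double morphants. The signals of 90% epiboly were 12.46, 12.10 and 11.95 in controls and 12.12, 11.98 and 11.995 in double morphants. At shield the double morphant samples were below all controls, the nearest pair being 0.01 apart, and the second double morphant sample lay far below the other two.

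The difference at shield was -0.55 (standard error 0.22, 95% CI -1.02 to -0.09), a signal at 68.1% of controls, the smallest adjusted p of the 19 probes at this stage but not past the threshold (adjusted p = 0.455). A block on the replicate number gave an adjusted p of 0.297 (limma). Samples with the same number differed by -0.01, -1.23 and -0.42, so the size of the difference rested on the second pair. Without the second double morphant sample it was -0.32. Probe 2 gave -0.24 (adjusted p = 0.784) with overlapping groups. At 90% epiboly the differences were -0.14 and -0.17 for probes 1 and 2.

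Between the stages, *gata5* did not follow the fall of *mixl1*. In double morphants probe 1 rose by 0.72 (standard error 0.22, adjusted p = 0.043), to 165% of its shield level, with no overlap. In controls the change was 0.30 (adjusted p = 0.424), and the 2 changes were not shown to differ (interaction 0.42, adjusted p = 0.9998). The rise in double morphants no longer passed in 7 of the 12 fits that left out 1 array: the third shield control, the second or the third shield double morphant, the second control of 90% epiboly or any double morphant of that stage (adjusted p = 0.0522 to 0.148). It also did not pass with both probes averaged (adjusted p = 0.0817). Probe 2 changed by 0.31 and 0.38 (adjusted p = 0.372 and 0.251).

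Gata6 is the paralogue of Gata5 and acts partly redundantly with it in endoderm and heart. The log2 signal of *gata6* probe 1 at shield was 11.84, 11.85 and 11.76 in controls and 12.10, 11.64 and 11.84 in double morphants. In samples of 90% epiboly it was 11.64, 11.38 and 11.19 in controls and 11.78, 11.52 and 11.40 in double morphants. The groups of each stage overlapped, and the controls of 90% epiboly lay below those of shield. No probe passed any comparison: the 3 probes differed by 0.04 to 0.13 between MO groups at shield and by 0.14 to 0.35 at 90% epiboly. From shield to 90% epiboly they changed by -0.41, -0.62 and -0.33 in controls (adjusted p = 0.155, 0.105 and 0.282) and by -0.30, -0.40 and -0.29 in double morphants. For probe 1 the 95% CI of the MO effect was -0.34 to 0.42 at shield and -0.22 to 0.54 at 90% epiboly.

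**Figure D3:**
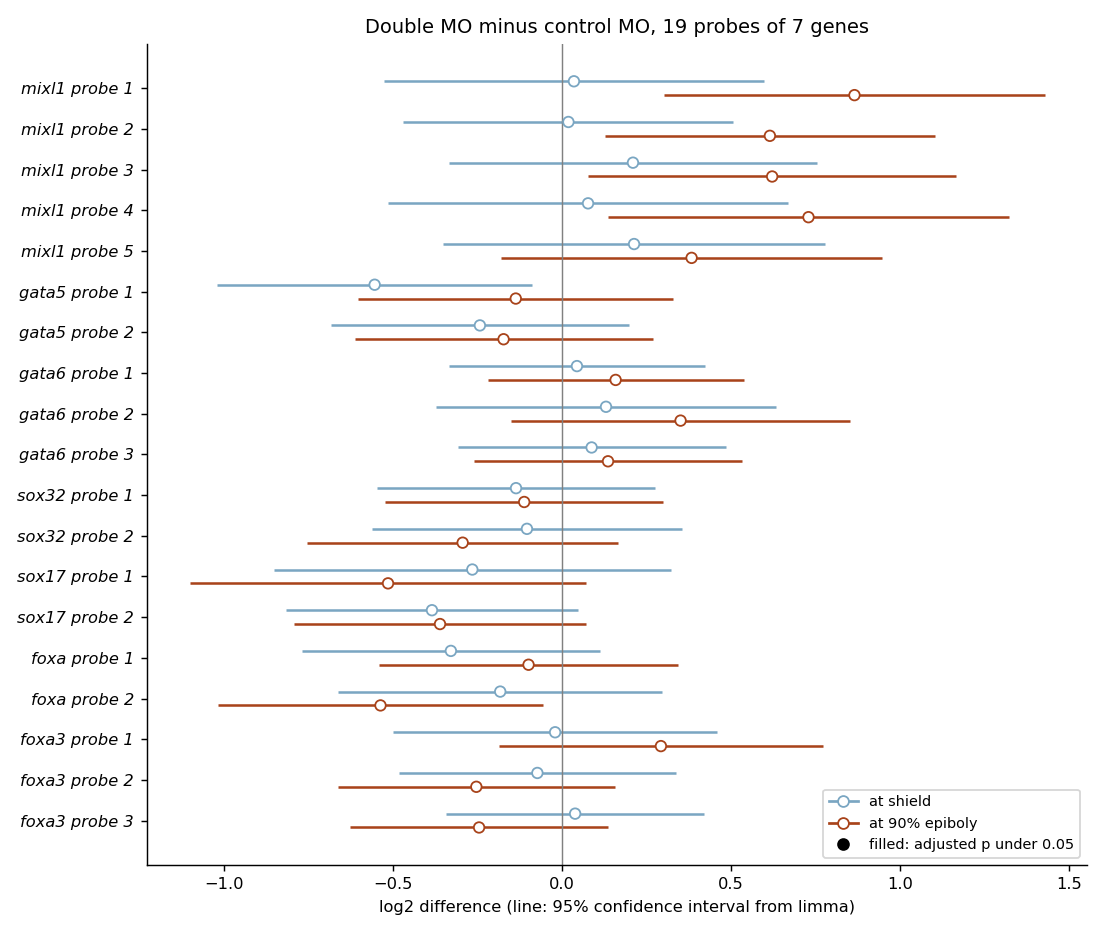
Log2 difference between double MO and control MO (x axis) for each of the 19 probes (y axis) at shield and at 90% epiboly; points are limma estimates from 3 arrays a group and lines are unadjusted 95% confidence intervals. No point is filled, since no adjusted p was under 0.05; the *mixl1* probes lie to the right at 90% epiboly, between 0.38 and 0.87.

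Sox32 is an HMG-box factor without which zebrafish form no endoderm. The log2 signal of *sox32* probe 1 at shield was 12.32, 12.13 and 12.43 in controls and 11.91, 12.01 and 12.54 in double morphants. The 90% epiboly values were 11.41, 11.35 and 11.09 in controls and 10.97, 11.22 and 11.32 in double morphants. The MO groups overlapped at both stages, and every sample of 90% epiboly lay below every shield sample.

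In controls *sox32* fell by 1.01 (standard error 0.19, adjusted p = 0.0038), to 49.6% of its shield level (95% CI 37.3 to 66.0%). In double morphants it fell by 0.99 (standard error 0.19, adjusted p = 0.00477), to 50.5% (95% CI 37.9 to 67.1%). The interaction was 0.02 (95% CI -0.56 to 0.61), so a difference between these falls of up to 0.61 was not excluded. Double morphants differed from controls by -0.14 at shield (95% CI -0.55 to 0.28, adjusted p = 0.889) and by -0.11 at 90% epiboly (95% CI -0.52 to 0.30). Probe 2 fell too, by 0.75 in controls (adjusted p = 0.035) and by 0.94 in double morphants (adjusted p = 0.0118). Its fall in controls missed the threshold when the fit left out the second or the third shield control, the second or the third control of 90% epiboly or the second double morphant of 90% epiboly (adjusted p = 0.0509 to 0.143). That in double morphants did not pass without the third double morphant sample of shield or of 90% epiboly (adjusted p = 0.0512 and 0.0539), whereas the falls of probe 1 passed in every such fit.

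Sox17 is the HMG-box factor switched on by Sox32 and marks the endodermal cells themselves. In the RefSeq gene order *sox17* and *sox32* flank a single gene model. The log2 signal of *sox17* probe 1 at shield was 6.86, 6.37 and 6.42 in controls and 6.99, 6.16 and 5.71 in double morphants. Later, at 90% epiboly, it was 7.23, 7.003 and 6.68 in controls and 6.36, 6.53 and 6.47 in double morphants. The shield groups overlapped widely, and at 90% epiboly the highest double morphant sample was below the lowest control.

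The difference was -0.27 at shield (adjusted p = 0.835, and 0.575 with a block on the replicate number). At 90% epiboly it was -0.52 (standard error 0.27, 95% CI -1.10 to 0.07, adjusted p = 0.970), a signal at 70.0% of controls. Probe 2 read 6.14, 6.22 and 6.05 in shield controls and 5.998, 5.68 and 5.58 in shield double morphants, without overlap (difference -0.39, adjusted p = 0.617). At 90% epiboly it read 6.64, 6.39 and 6.88 in controls and 5.87, 6.501 and 6.45 in double morphants, which overlapped (-0.36, adjusted p = 0.995). Both probes were thus at lower mean signals in double morphants at both stages, and neither passed. Both were dim: the mean of probe 2 was under 6.56, the 40th percentile of feature means, and that of probe 1 at percentile 40.1. How far such signals lie above background is not given in the sources used here, so a change could be compressed. Between the stages *sox17* changed by 0.42 and 0.50 in controls and by 0.17 and 0.52 in double morphants, none past the test (adjusted p = 0.106 to 0.751), though probe 2 passed in double morphants with array weights (adjusted p = 0.0473) or without the first double morphant of 90% epiboly (0.0375). For probe 2 every control of 90% epiboly was above every control of shield.

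In RNA of whole embryos, fewer cells of a type and less RNA per cell cannot be told apart, and this holds for every gene here. Across the 19 probes, 2 were lower in double morphants without overlap at shield (*gata5* probe 1 and *sox17* probe 2, background 6.02% of all features) and 2 at 90% epiboly (*sox17* probe 1 and *foxa* probe 2, background 7.02%). None was higher without overlap at shield (background 5.6%).

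The Foxa forkhead factors are expressed in endoderm, and family members also mark the axial midline. The log2 signal of *foxa* probe 1 at shield was 11.96, 12.23 and 12.36 in controls and 11.50, 11.80 and 12.27 in double morphants. The values of 90% epiboly were 11.30, 10.98 and 11.05 in controls and 11.23, 10.91 and 10.90 in double morphants. Both pairs of MO groups overlapped, and every sample of 90% epiboly lay below every shield sample of either group.

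In controls *foxa* fell by 1.07 (standard error 0.20, adjusted p = 0.00408), to 47.6% of its shield level, and in double morphants by 0.84 (standard error 0.20, adjusted p = 0.0168), to 55.8%. The latter did not pass without the third shield double morphant or the second or the third double morphant of 90% epiboly (adjusted p = 0.0637 to 0.073). Probe 2 fell by 1.43 in controls (adjusted p = 0.00111) and by 1.79 in double morphants (adjusted p = 0.000288). Between the MO groups the differences of probe 1 were -0.33 at shield (adjusted p = 0.692), with same-numbered samples differing by -0.46, -0.43 and -0.09 (adjusted p = 0.340 with the block), and -0.10 at 90% epiboly (adjusted p = 1.00).

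For *foxa* probe 2 the values at 90% epiboly were 8.95, 8.85 and 8.54 in controls and 8.47, 8.38 and 7.87 in double morphants. These groups did not overlap, with a difference of -0.54 (standard error 0.22, 95% CI -1.02 to -0.06, adjusted p = 0.758). The probes of *foxa* therefore gave unequal MO differences at 90% epiboly, -0.10 and -0.54. Their correlation of 0.935 over the 12 arrays includes the fall of both probes between the stages.

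*foxa3* encodes a second forkhead factor of this family, which in the later embryo is a marker of gut, liver and pancreas. The log2 signal of *foxa3* probe 1 at shield was 9.66, 10.01 and 10.04 in controls and 9.93, 9.89 and 9.82 in double morphants. By 90% epiboly it was 9.74, 9.12 and 8.91 in controls and 9.90, 9.35 and 9.40 in double morphants. The 4 groups overlapped in part, since the first sample of each group of 90% epiboly lay above the lowest shield control.

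The MO differences of the 3 probes were -0.02, -0.07 and 0.04 at shield and 0.29, -0.25 and -0.25 at 90% epiboly, with signs that differed between probes. From shield to 90% epiboly the probes changed by -0.65, -0.47 and -0.44 in controls, none past the test (adjusted p = 0.0761, 0.134 and 0.128). Probe 1 passed there with array weights (adjusted p = 0.00778) or without the first control of 90% epiboly (0.0158), probe 3 with array weights (0.0467), and the mean of the 3 probes passed too (-0.52, adjusted p = 0.0339). In double morphants probes 2 and 3 fell by 0.65 and 0.73 (adjusted p = 0.0393 and 0.0168), and probe 1 changed by -0.33 (adjusted p = 0.368). The fall of probe 2 did not pass without any of 6 arrays (adjusted p = 0.051 to 0.145), among them each double morphant of 90% epiboly, the first and the third double morphants of shield and the second control of 90% epiboly. That of probe 3 did not pass without the second shield double morphant or the third double morphant of 90% epiboly (adjusted p = 0.0556 and 0.0862). Correlations among the 3 probes were 0.472 to 0.681, lower than for *mixl1* or *foxa*. The 3 probes of *gata6* correlated at 0.497 to 0.817 and the 2 of *sox17* at 0.636.

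**Figure D4:**
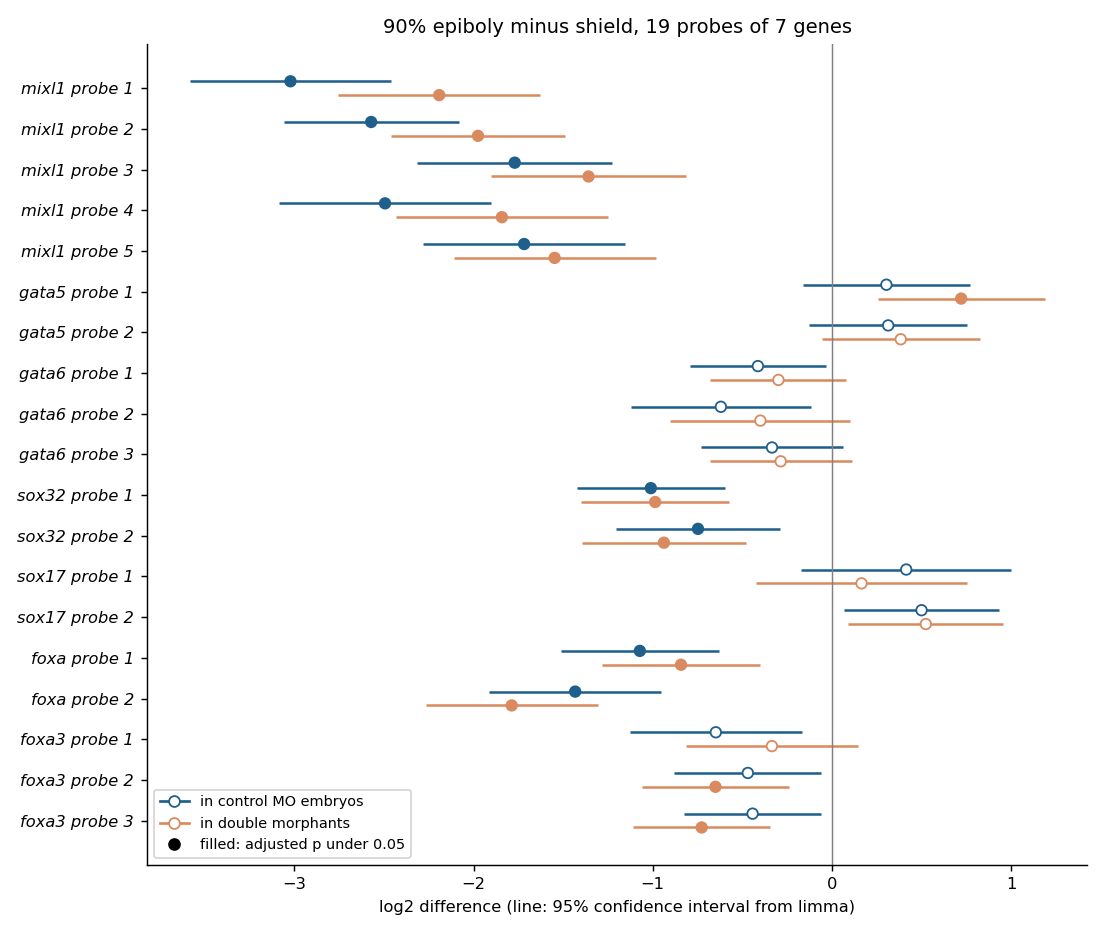
Log2 difference between 90% epiboly and shield (x axis) for each of the 19 probes (y axis) with control MO and in double morphants; points are limma estimates, filled where the adjusted p was under 0.05, and lines are unadjusted 95% confidence intervals. All probes of *mixl1*, *sox32* and *foxa* are filled and lie left of 0 in both kinds of embryo, down to -3.02 for *mixl1* in controls.

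Counted over all probes, 9 of the 19 fell from shield to 90% epiboly in controls and none rose, where 7.04% of all features fell and 5.73% rose. In double morphants 11 fell and 1 rose, where 6.79% of all features fell and 6.28% rose. An unadjusted p under 0.05 was reached by 15 probes in controls and 13 in double morphants, beside 25.8% and 27.1% of all features. Without overlap, 12 probes were lower and 1 higher at 90% epiboly in controls (background 15% and 14.3%), and 11 lower and 1 higher in double morphants (background 16.5% and 16.3%). The 9 were the probes of *mixl1*, *sox32* and *foxa*, and the 12 were these with probes 2 and 3 of *foxa3* and probe 1 of *gata5*. The median change over the 19 probes was -0.65 in controls and -0.73 in double morphants, beside 0.00 and -0.01 over all features. Leaving out the third double morphant of 90% epiboly lowered the count in double morphants from 12 to 7. The share over all features in that fit was not counted. By gene, with probe 1 standing for each, 3 of 7 fell in both kinds of embryo, where 8.29% of all genes fell in controls and 8.23% in double morphants, and *gata5* rose in double morphants, where 7.89% of all genes rose.

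The genes above these factors were taken as a list of Nodal signaling and maternal inputs, of which 13 of 15 were measured. At shield 1 of the 13 was higher in double morphants and none lower, and at 90% epiboly 3 were higher and none lower. Of all genes, 0.286% were higher and 0.263% lower at shield, and 0.218% and 0.572% at 90% epiboly. The median difference of the list was 0.24 and 0.51, beside 0.02 and 0.01 over all genes, and no gene of it passed the interaction (0.211% of all genes). From shield to 90% epiboly 8 of the 13 fell in controls and 6 in double morphants, where 8.29% and 8.23% of all genes fell, and none rose.

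*gdf3* (*dvr1* on the array) encodes the maternally supplied Vg1 ligand that acts as a heterodimer with Nodal. At shield its log2 signal was 10.21, 11.29 and 11.66 in controls and 12.47, 12.92 and 13.15 in double morphants, and at 90% epiboly 8.59, 8.71 and 8.36 against 11.81, 11.58 and 11.75. Double morphant samples lay above controls at both stages, by 1.80 and by 3.16 (standard error 0.30 for each, adjusted p = 0.014 and 4.38e-05). The second probe gave 1.34 (adjusted p = 0.0603) and 1.80 (adjusted p = 0.00505). The shield difference lost its call when the second or the third of the double morphant samples was left out (adjusted p = 0.0615 and 0.0816) or in a fit of the 6 shield arrays alone (adjusted p = 0.223).

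At 90% epiboly *tdgf1* (*oep* on the array), which encodes the Nodal co-receptor, read 12.42, 12.11 and 12.11 in controls and 13.16, 13.10 and 13.12 in double morphants. The type I receptor gene *acvr1ba* read 8.94, 8.94 and 9.03 in controls and 9.93, 9.82 and 9.83 in double morphants. Neither pair of groups overlapped, and the differences were 0.92 for *tdgf1* and 0.89 for *acvr1ba* (standard errors 0.18 and 0.15, adjusted p = 0.0272 and 0.0107). The call for *tdgf1* was lost without the second or the third control or any double morphant of that stage (adjusted p = 0.116 to 0.162). Its other 2 probes gave 0.74 and 0.61 (adjusted p = 0.170 and 0.656). The call for *acvr1ba*, which has 1 probe, was lost without the second control or any double morphant of that stage (adjusted p = 0.0538 to 0.0705).

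The Nodal ligand genes themselves did not pass: *ndr1* differed by 0.41 at shield and 0.36 at 90% epiboly, and *ndr2* by -0.30 and -0.44 (adjusted p = 0.463 to 1.00). The second probe of *ndr1* went the other way, with -0.18 and -0.16, and did not pass either. For *ndr2*, which has 1 probe, every double morphant sample was below every control at both stages. Of all features, 6.02% at shield and 7.02% at 90% epiboly were lower without overlap. *eomesa*, the maternal T-box input of endoderm, differed by 0.23 and 0.59 (adjusted p = 0.774 and 0.385), the latter past the threshold only with array weights (adjusted p = 0.0195, range over its alternatives 0.0195 to 1.00). The second probe of *eomesa* gave 0.03 and 0.35, neither past the threshold. In controls *ndr1* fell by 2.31 and *eomesa* by 0.95 from shield to 90% epiboly (adjusted p = 0.000283 and 0.00467), while the second probe of *ndr1* changed by -0.53 (adjusted p = 0.0816) and *ndr2* by -0.16 (adjusted p = 0.559).

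**Figure D5:**
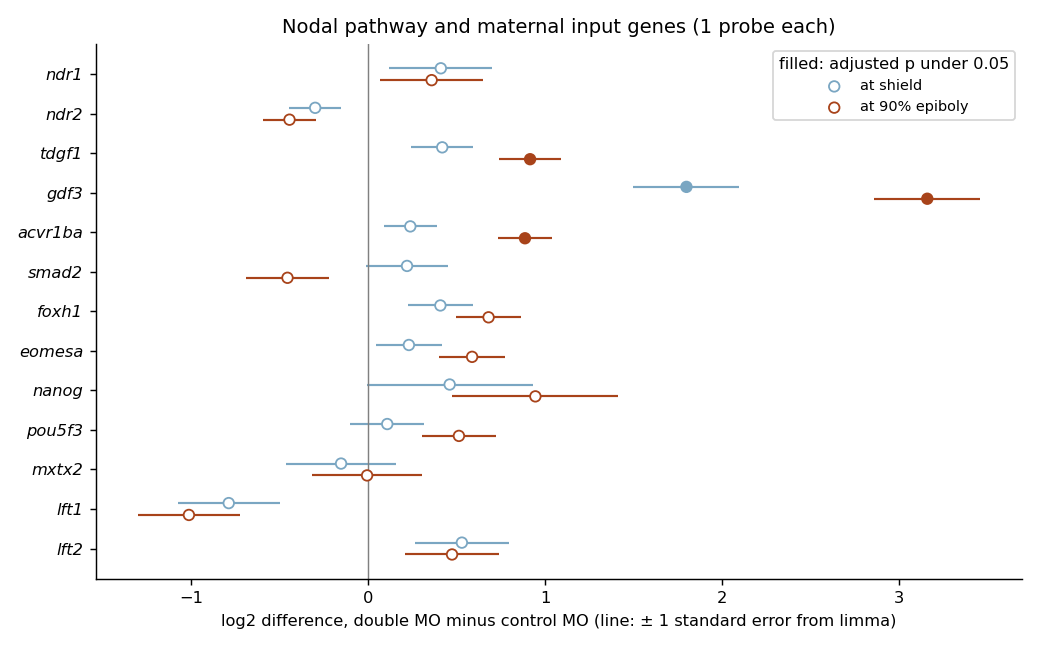
Log2 difference between double MO and control MO (x axis) for the 13 measured genes of the list of Nodal signaling and maternal inputs (y axis), brightest probe of each, at shield and at 90% epiboly; lines are ± 1 standard error and filled points have an adjusted p under 0.05. Filled are *gdf3* at both stages (1.80 and 3.16) and *tdgf1* and *acvr1ba* at 90% epiboly (0.92 and 0.89).

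Of 12 other genes of early endoderm, 11 were measured, and none passed between MO groups at either stage (median difference 0.10 and 0.02). From shield to 90% epiboly 4 rose and 3 fell in controls, and 5 rose and 2 fell in double morphants, where 7.2% and 7.89% of all genes rose and 8.29% and 8.23% fell. *foxa2*, a forkhead gene of endoderm and of the axial midline, read 10.79, 9.79 and 10.04 in shield controls and 9.97, 8.83 and 8.95 in shield double morphants, which overlapped. The difference was -0.96 (standard error 0.30, adjusted p = 0.309). A fit with a block on the replicate number within each stage put *foxa2* lower in double morphants at shield (limma, adjusted p = 0.0268, range over its alternatives 0.0268 to 0.895). There, same-numbered samples deviated together and differed on the same side, but their pairing was judged from the data alone. At 90% epiboly *foxa2* differed by -0.37. The second probe of *foxa2* gave -0.81 at shield (adjusted p = 0.466) and -0.29 at 90% epiboly.

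Markers of other tissues of the embryo were examined beside them. In the fit of all 12 arrays none passed between MO groups at either stage. These were 5 measured genes of the yolk syncytial layer, and 10 of the axial mesoderm, prechordal plate and floor plate. Also measured were 3 genes of the dorsal forerunner cells, 7 of the heart and lateral mesoderm and 5 of the enveloping layer. The axial and forerunner lists shared a gene, and the yolk syncytial, axial and heart lists each shared genes with the lists above. These lists are therefore not separate readouts. The forerunner genes were dim (percentiles 11.3 and 19.9 of mean signal) or variable (standard error 0.63), so a change there could be missed. The summed log2 level of the yolk syncytial list was 12.07 to 12.58 in controls and 12.22 to 12.71 in double morphants at shield, and 12.69 to 13.22 and 12.84 to 13.33 at 90% epiboly. That of the axial list was 13.84 to 13.93 and 13.84 to 13.95 at shield, and 14.39 to 14.55 and 14.09 to 14.22 at 90% epiboly, where the double morphants lay lower. The mean log2 level of the axial list, in which bright genes weigh no more than others, was lower in double morphants at shield too. It was 9.84 to 9.90 in controls and 9.59 to 9.76 in double morphants. The axial genes went in both directions at shield, from -0.96 to 0.82, with a median difference of -0.21. The lowest was *foxa2*, already counted among the endoderm genes. For the gene with 0.82, the other probe gave -0.11. The enveloping layer list was lower in double morphants at 90% epiboly (summed level 17.19 to 17.38 in controls, 16.71 to 17.06 in double morphants, median difference -0.30). The mean level of the heart list was higher in double morphants at shield (8.32 to 8.72 and 8.76 to 8.91), where its summed levels overlapped, as did those of the dorsal forerunner list at both stages. Several heart genes were dim, with means of 5.97 to 6.36 in shield controls, under 6.56 (the 40th percentile of feature means). Another had an SD of 1.37 there. The heart genes differed by -0.05 to 0.73 at shield, none past the test. For the gene with 0.73, the other probes gave 0.24 and -0.18. No background share was computed for such separations of list levels, which rest on 3 samples a group. The part of these tissues in the signals of *sox32*, *gata5*, *gata6* and the Foxa genes was not tested.

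The genes most like each factor over the 12 arrays were the 3 with the highest Pearson correlation among 9761 genes above the 40th percentile of signal. For *mixl1* these were *podxl2* (0.992), *cxcr4b* (0.990), a chemokine receptor gene, and *pudp* (0.984). For *sox32* they were *rgs7a*, *atp5mc1* and *baiap2a* (0.974 to 0.976), and for *foxa* they were *vrk3*, *ppp4r2a* and *apoda.2* (0.977 to 0.980). *foxa3* was nearest to *inpp5f* (0.969), *gata6* to *srsf7b* (0.935), *gata5* to *snrnp200* (0.912) and *sox17* to *cnot3a* (0.893). All of these rest on 12 arrays that differ by stage, and *cxcr4b*, for example, changed by -3.50 from shield to 90% epiboly in controls, beside -3.02 for *mixl1*.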

How the data were processed

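Total RNA of 12 pools of zebrafish embryos was measured on single-colour Agilent arrays (V3). The authors deposited log2 values normalized between arrays. How background was corrected, which normalization was used and with what software is not given in the sources used here. No value was missing, and 0 value columns were left without a sample. Groups and replicate numbers came from the sample titles.

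Group means were estimated for all 45220 features on the 12 arrays with limma 3.58.1 in R 4.3.3 (residual degrees of freedom 8, prior 5.32). Contrasts were the MO effect at shield and at 90% epiboly, their interaction, and 90% epiboly minus shield in each kind of embryo. Benjamini-Hochberg adjustment ran over all features at 0.05. Array symbols were updated through a RefSeq gene table, 18 of the 19 probes by accession and the remaining *mixl1* probe by synonym. In lists the brightest probe stands for a gene. Only 3 arrays a group limit the precision.

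All 19 probes are named. List genes are named if they passed an MO contrast or the interaction, and *ndr1*, *ndr2*, *eomesa* and *foxa2* in any case. Genes and lists were chosen with earlier results of these data known. At shield, same-numbered samples deviated together from their group means (correlations of 0.34, 0.35 and 0.30, against -0.24 to -0.06 for unlike numbers). They were taken as paired there, as judged from the data alone. Deviations from a group's own mean cancel within the group, so positive values for like numbers force negative ones for unlike numbers. The unlike values are therefore no separate evidence of a pairing, which no source states. At 90% epiboly same-numbered samples correlated at 0.20, 0.08 and 0.41, also above those of unlike numbers (-0.27 to 0.03). They were not taken as paired at that stage, though these values do not exclude it. The main fit used no pairing at either stage. Alternatives were each stage on its own arrays, the replicate block, quantile, median and cyclic loess normalization, removal of dim features, array weights, a trended and robust variance prior, probes averaged, Student's t-test and each array left out. The study's methods name this t-test for expression levels in general and refer to an earlier study for the arrays. Array weights ran from 0.458 to 3.94, the highest being that of the second control of 90% epiboly. For list genes the alternatives were added after seeing the data. The fit was also run on simulated data, whose outcome is not given here. Its noise was independent between samples, without the shared deviations of same-numbered samples. Figures were drawn with Python 3.11.15, NumPy 2.4.6, pandas 2.3.3 and matplotlib 3.10.9.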

Additional observations from a re-analysis of the deposited data

How the results depend on the processing

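No probe of the 7 genes passed between MO groups or in the interaction under any adjusted test run, and the counts without each array in turn stayed at 0. Student's t-test without adjustment gave 1 probe at shield and 5 at 90% epiboly (6.01% and 7.59% of all features) and none after adjustment. From shield to 90% epiboly it gave, after adjustment, 0 probes in controls and 1 in double morphants, where limma gave 9 and 12, and over all 45220 features this test gave 128 and 473. With probes averaged per gene, 4 of 7 genes passed in controls and 4 in double morphants, and the share over all genes was not counted. In this fit *foxa3* passed in both (adjusted p = 0.0339 and 0.0227), and *gata5* no longer passed in double morphants (0.0817). Leaving out single arrays gave 8 to 10 probes in controls and 7 to 12 in double morphants. The shares over all features in these fits were not counted. A replicate block within each stage was used for the MO contrasts and the interaction. With it, calls over all features rose from 219 to 333 at shield and from 319 to 466 at 90% epiboly. No such call of the 19 probes changed, and *mixl1* at 90% epiboly came to an adjusted p of 0.0603 (limma). For the changes between stages 1 block was shared by both stages. This takes same-numbered samples as matched across stages, which no source states. Only the rise of *gata5* in double morphants lost its call there (limma, adjusted p = 0.0528). Small differences changed sign: *mixl1* at shield was -0.054 with array weights, and with probes averaged *foxa3* was -0.069 at 90% epiboly and the interactions of *foxa*, *foxa3* and *sox32* were -0.062, -0.051 and -0.083. Leaving out single arrays, differences at shield ranged from -0.22 to 0.30 for *mixl1*, -0.14 to 0.049 for *foxa3*, -0.076 to 0.15 for *gata6* and -0.62 to 0.023 for *sox17*. The difference of *gata5* at 90% epiboly ranged from -0.25 to 0.0085, the stage difference of *sox17* in double morphants from -0.12 to 0.52, and the interactions of *sox17* and *sox32* from -0.54 to 0.10 and from -0.10 to 0.22. Over the 7 genes and the named list genes, the settings other than leaving out arrays kept direction and side of the threshold for 476 values, weakened 16 below it, brought 5 past it and turned the sign of 5. Among list genes, the call of *tdgf1* at 90% epiboly was also lost with probes averaged (limma, adjusted p = 0.081). Student's t-test after adjustment lost it too (0.147), as well as the call of *gdf3* at shield (0.732). The cause of these changes was not tested. With 3 arrays a group and no stated background level, small changes of dim probes such as those of *sox17* could be missed.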
